A study of Mus musculus with 12 samples.

Results

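The genes described here encode the proteins of the mitochondrial ribosome. They were taken by symbol, as all genes named Mrpl or Mrps followed by a number and at most 1 letter from a to c, with pseudogenes left out. This gave 78 of the 53715 genes in the count table, 49 with a large subunit symbol (Mrpl) and 29 with a small subunit symbol (Mrps). Their levels were measured by RNA-seq in 12 libraries of sorted mouse spermatogonia, the mitotic germ cells that feed sperm production. Each library was made from 1000 cells by Smart-seq2, which amplifies full-length cDNA from small amounts of RNA. The 4 groups held 3 libraries each and were WT at 3 months, Tet1KO at 3 months, WT at 11 months and Tet1KO at 11 months of age, all of the C57BL6/129 strain. The labels do not describe the Tet1KO allele or the sorting gate, and do not state whether replicates are different animals. P-values therefore rest on the spread between libraries alone, which may be technical.

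Mitochondria keep their own ribosome, which translates the mRNAs of the 13 protein-coding genes of the mitochondrial genome into core subunits of the respiratory chain. Its ribosomal RNAs are made in the organelle, while all of its proteins are encoded in the nucleus, translated in the cytosol and imported. Some of these proteins descend from the bacterial ribosome and others were added in the mitochondrial lineage. The small subunit reads the mRNA, and the large subunit joins the amino acids and anchors the nascent chain to the inner membrane. TET1 oxidises 5-methylcytosine in DNA, and the comparison by genotype and age asks how spermatogonial transcripts differ without it.

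Total counts ran from 8325159 to 18223645 per library. Levels are given in CPM, each count relative to the library total after scaling with TMM factors. The 10 spermatogonial markers were all detected, with a summed level of 2966 to 4262 CPM, and Dazl, a germ cell RNA-binding protein gene, averaged 2053 CPM. Tet1 itself lay between 0 and 1.73 CPM, with group means of 0.925 ± 0.841 (SD, n = 3) for WT against 0.981 ± 0.649 for Tet1KO among the younger libraries, and 0.515 ± 0.436 against 0.729 ± 0.866 among the older. A count of 0 allows 0.165 to 0.36 CPM at these depths, so counts over the whole gene do not check the labels, and WT and Tet1KO below mean libraries so labelled. Markers of other testis cells were present at differing levels. Sertoli cell markers summed to 85.7 to 267 CPM in WT and 21.3 to 75.3 CPM in Tet1KO at 3 months, peritubular myoid markers to 71.4 to 240.9 CPM in WT and 22.9 to 55.0 CPM in Tet1KO at 11 months, and spermatid markers ran from 285 to 2786 CPM over all libraries. Spermatocyte markers ran from 915 to 3447 CPM, close to the spermatogonial sum in some libraries, and leukocyte and macrophage markers from 47.7 to 556 CPM. Leydig cell markers stayed between 2.26 and 13.2 CPM, and erythroid markers at or below 1.59 CPM. WT replicate 1 and Tet1KO replicate 2 of 3 months stood apart on the first principal component of all genes, with 29420 and 30010 genes counted against at most 26995 elsewhere. The part of other cells and of these libraries in the values below was not tested, except where a value without those libraries is given.

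All 78 genes were expressed in every library, and the lowest count of any of them in any library was 79. Their mean levels ran from 17.3 to 592 CPM, with a median of 112 CPM, and the median gene stood above 89.7% of the 19815 genes tested. Levels of different genes are compared per kilobase of exon length. On that scale the large subunit genes ran from 9.14 to 219 CPM per kb with a median of 46.4, and the small subunit genes from 2.63 to 187 with a median of 45.1. The 29 bacterial-type and 22 mitochondria-specific proteins of the large subunit, sorted by their place in the ribosome, and the 16 and 10 of the small subunit were spread over this range.

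The 5 highest were Mrpl28, a bacterial-type large subunit protein gene (219 ± 22.6 CPM per kb, SD over 12 libraries), Mrps18c (187 ± 50.9), Mrpl18 (183 ± 35.4), Mrps21 (179 ± 52.6) and Mrpl40 (178 ± 29.4). Neighbours in this order differed by less than the larger of their SDs. The 5 lowest were Mrps5, a core protein of the small subunit (2.63 ± 0.65), Mrps18a (6.96 ± 2.61), Mrps30 (8.75 ± 1.38), Mrps27 (8.90 ± 1.53) and Mrpl19 (9.14 ± 1.67). The mean of Mrps5 lay more than 1 SD of either gene below that of Mrps18a, and the other neighbours did not differ beyond their spread. Exon length takes in all annotated exons of a gene, and with the length of the principal transcript instead Mrpl42 came first and Mrpl28 took rank 9, while Mrps5 stayed last. The ranks on both lengths had a Spearman correlation of 0.802 over the 78 genes. Reads were counted without strand and for every gene they overlap, and 32 of the 78 genes share exon bases with another gene, up to 88.0% in Mrpl53, 77.8% in Mrps34 and 69.8% in Mrps25, so their levels hold reads that cannot be assigned to 1 gene.

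**Figure D1:**
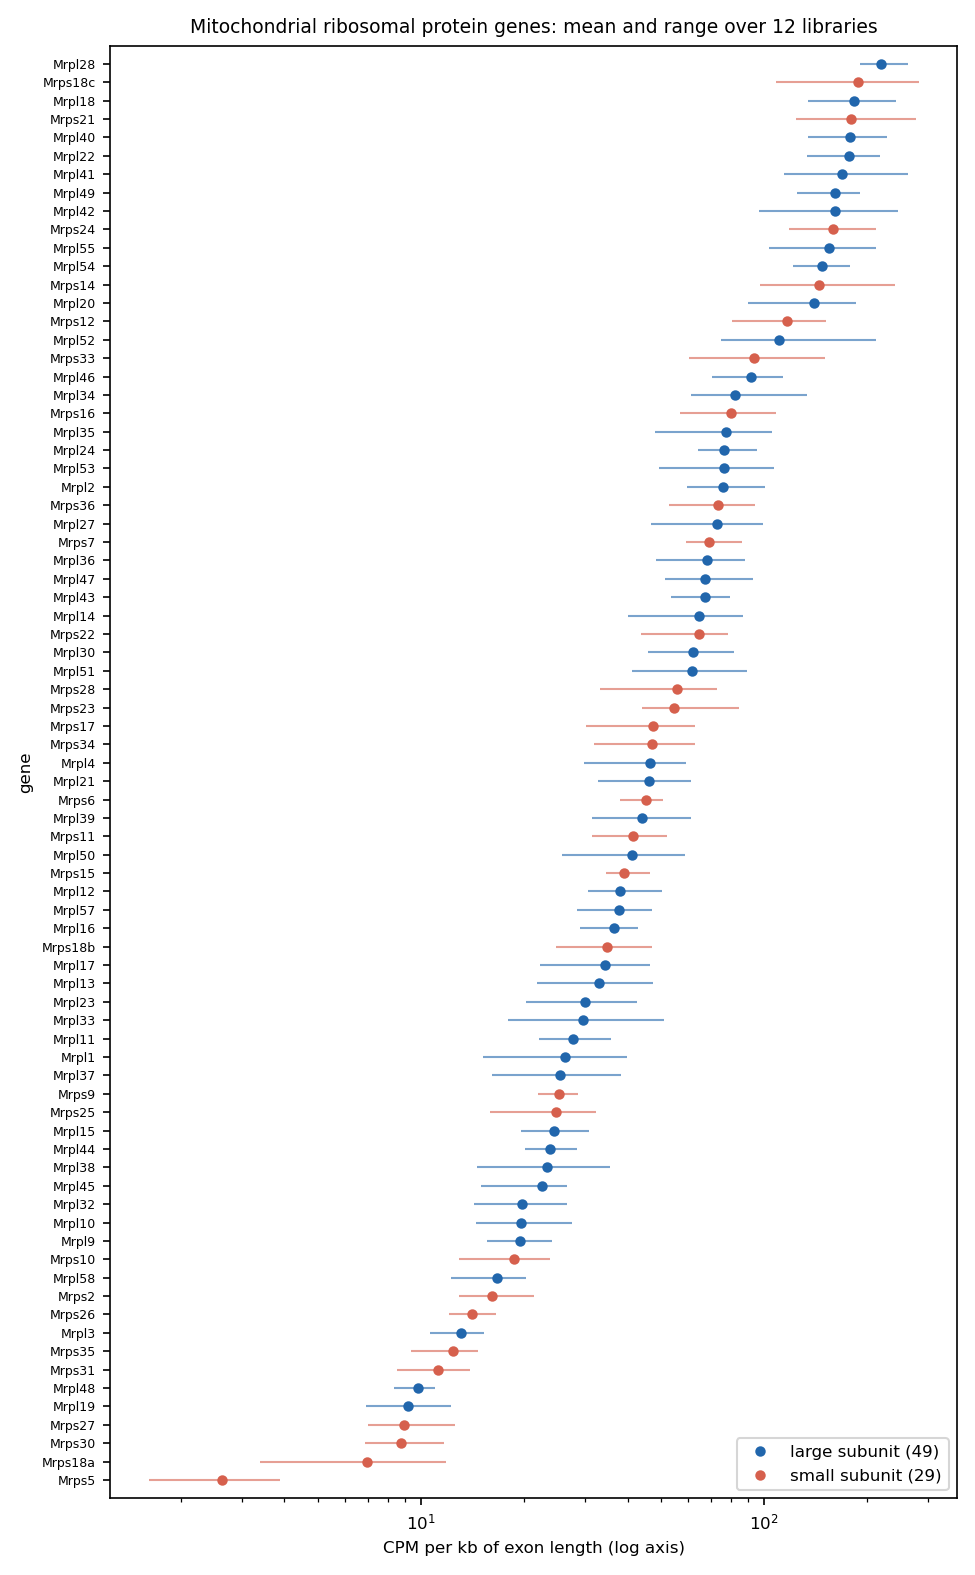
Level of each of the 78 genes in CPM per kb of exon length on a log axis, large subunit genes in blue and small subunit genes in red. Points are means and lines the range over 12 libraries; Mrpl28 leads at 219 and Mrps5 is last at 2.63, and the ranges of both subunits overlap from 9.14 to 187.

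Mrps18a, Mrps18b and Mrps18c descend from 1 bacterial gene, and their products sit in different places, Mrps18a in the large subunit despite its name and the other two in the small one. Mrps18c stood at 208 ± 55.0, 169 ± 22.1, 179 ± 43.1 and 193 ± 87.0 CPM per kb (SD, n = 3) in WT and Tet1KO at 3 months and WT and Tet1KO at 11 months. Mrps18b stood at 33.5 ± 5.41, 38.5 ± 7.70, 36.8 ± 3.85 and 31.1 ± 6.49, and Mrps18a at 5.52 ± 1.79, 7.50 ± 4.23, 6.97 ± 3.12 and 7.84 ± 1.34 in the same order. The order of the 3 paralogues was the same in each group. Mrps18a varied most of all 78 genes across libraries, with an SD of 0.59 in log2 CPM. At 3 months its level was 27.5, 19.1 and 14.5 CPM for WT, with 26.7, 43.8 and 12.6 CPM for Tet1KO. At 11 months it was 12.5, 33.5 and 31.1 CPM for WT, with 34.4, 27.8 and 24.7 CPM for Tet1KO. The span was 3.50-fold and the groups overlapped; the highest value came from Tet1KO replicate 2 of 3 months, which stood apart over all genes. Mrps6, a bacterial-type small subunit gene, varied least, with an SD of 0.12 and a range of 40.0 to 53.6 CPM.

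Genes listed for their roles were spread over this range. Mrpl12, whose product forms the flexible stalk of the large subunit and also binds the mitochondrial RNA polymerase, stood at 35.6 ± 0.98, 36.0 ± 4.40, 43.7 ± 8.40 and 36.7 ± 5.17 CPM per kb in the 4 groups in the order above. Mrpl10 and Mrpl11, which hold the stalk, averaged 19.5 and 27.7 CPM per kb over the libraries. Mrpl58, a peptidyl-tRNA hydrolase built into the large subunit that frees stalled chains, averaged 16.6 ± 2.51, and Mrpl44 averaged 23.7 ± 2.42. Mrps12, a protein of the decoding centre, averaged 117 ± 19.7 and Mrps7, of the small subunit head, 69.3 ± 8.19. Mrps36 averaged 73.2 CPM per kb; its product is an adaptor of the 2-oxoglutarate dehydrogenase complex and is in no subunit class here. Mrps30, a large subunit protein despite its name, averaged 8.75, and Mrpl47, Mrps24 and Mrps28, which are the counterparts of bacterial proteins with other numbers, averaged 67.3, 159 and 55.8 CPM per kb.

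Promoter sequence was available for 69 of the 78 genes in a RefSeq table on GRCm38.p6, the assembly that mm10 names, from 250 bases before to 50 after the start. The letters of 4 transcription factor motifs that are known at promoters of mitochondrial and housekeeping genes were searched on both strands. CCGGAAG, the core bound by ETS factors such as GABP, was in 26 promoters (37.7%), against 17.6% of the 12847 tested genes in the table. AAGATGGC, the YY1 core, was in 12 (17.4% against 4.65%), and GCATGCGC, the core bound by nuclear respiratory factor 1, was in 8 (11.6% against 5.46%). CCAAT, the letters bound by NFY, was in 27 (39.1% against 42.9%). At least 1 of the first 3 was in 38 promoters (55.1% against 25.2%), and 8 genes held at least 2 of the 3. A match is a description of letters, and binding was not measured. Stretches of 150 bases that end just before the start are shown for 6 genes that carry these letters in different ways, in lower case with the matches to ETS, YY1 and nuclear respiratory factor 1 letters in capitals, 5′ to 3′ on the strand of the gene.
Mrpl32 (chr13:14613038-14613187, minus strand) encodes a large subunit protein that matures only after cleavage by a protease of the inner membrane, and its stretch holds 4 matches to the nuclear respiratory factor 1 core, of which 2 overlap as a palindrome.
Mrpl32: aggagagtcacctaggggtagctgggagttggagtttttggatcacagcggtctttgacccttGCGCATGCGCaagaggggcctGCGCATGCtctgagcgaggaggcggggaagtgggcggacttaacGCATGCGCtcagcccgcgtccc
Mrpl22 (chr11:58171514-58171663, plus strand), of the exit tunnel, has an ETS and a nuclear respiratory factor 1 match close together.
Mrpl22: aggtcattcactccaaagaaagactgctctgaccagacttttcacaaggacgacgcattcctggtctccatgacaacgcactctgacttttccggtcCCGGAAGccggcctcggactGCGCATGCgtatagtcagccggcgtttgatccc
Mrpl43 (chr19:45006443-45006592, minus strand) has 2 ETS matches.
Mrpl43: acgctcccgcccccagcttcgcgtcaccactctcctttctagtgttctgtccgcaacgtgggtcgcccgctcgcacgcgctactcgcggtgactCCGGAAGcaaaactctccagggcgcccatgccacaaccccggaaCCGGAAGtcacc
Mrpl52 (chr14:54426759-54426908, plus strand), the gene that followed the cytosolic ribosomal protein genes most closely below, has 1 ETS match.
Mrpl52: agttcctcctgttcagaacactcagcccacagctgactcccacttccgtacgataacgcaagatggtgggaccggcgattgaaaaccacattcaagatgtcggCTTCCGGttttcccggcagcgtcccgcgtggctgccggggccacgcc
Mrpl36 (chr13:73330859-73331008, plus strand) and Mrps11 (chr7:78782981-78783130, plus strand) have 1 YY1 match each, on the opposite strand.
Mrpl36: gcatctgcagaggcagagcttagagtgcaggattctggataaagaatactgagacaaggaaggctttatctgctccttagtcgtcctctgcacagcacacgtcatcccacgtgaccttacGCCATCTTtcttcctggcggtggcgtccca
Mrps11: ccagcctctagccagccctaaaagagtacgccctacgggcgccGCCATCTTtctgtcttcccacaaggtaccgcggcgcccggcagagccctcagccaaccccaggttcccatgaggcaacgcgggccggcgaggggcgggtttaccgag

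A start on the opposite strand within 1000 bases, facing away, was counted for 19 of the 78 genes (24.4%), against 11.8% of the 19815 genes tested. Mrpl55 also has such a start nearby, that of 2610507I01Rik, which is not among these 19 pairs. Starts here are the outer ends of the genes as annotated for the counts, while the printed promoters use RefSeq starts. These starts differ for some genes. The printed stretches of Mrpl32 and Mrpl36 overlap the annotated genes (mm10 chr13:14608184-14613165 and chr13:73328513-73332178). By the annotated ends, the Mrpl32 start lies 75 bases from that of Psma2, a proteasome subunit gene. Psma2 averaged 754 CPM, and the pair had a Pearson r of 0.94 over 12 libraries in log2 CPM (Spearman rho 0.83, r without the 2 most distant libraries 0.86). Mrpl30 and Mitd1, 66 bases apart, had an r of 0.83 (rho 0.83, 0.74 without 2). Over all 19 pairs r ran from −0.67 to 0.94, and the pairs named here were picked after their values were seen. Mrpl43 and Twnk, the gene of the mitochondrial DNA helicase, 116 bases apart, had an r of 0.09 (rho 0.13, −0.28 without 2), and Mrps34 and Eme2, 29 bases apart, an r of −0.67 (rho −0.69, −0.48 without 2). These correlations are descriptions over 12 libraries that share their scaling and depth.

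The large subunit genes summed to 3171, 3146 and 4111 CPM per kb for WT at 3 months, 3194, 3124 and 3355 for Tet1KO at 3 months, 3541, 3125 and 4212 for WT at 11 months and 3501, 2654 and 4153 for Tet1KO at 11 months. The small subunit genes summed to 1535, 1527 and 2108, then 1608, 1440 and 1632, then 1772, 1464 and 1979, and then 1727, 1242 and 2153 CPM per kb, with the groups in the same order. The 4 groups overlapped in both sums. The third replicates of WT at 3 months and of both genotypes at 11 months were the highest 3 libraries in both, and Tet1KO replicate 2 of 11 months was the lowest. The ratio of the large to the small sum was 2.03 ± 0.06 (SD, n = 3), 2.07 ± 0.09, 2.09 ± 0.08 and 2.03 ± 0.10 in WT and Tet1KO at 3 months and WT and Tet1KO at 11 months. It spanned 1.93 to 2.17 over the libraries, a 1.12-fold range, while the large sum spanned 1.59-fold and the small sum 1.73-fold. With each gene placed by structure rather than by name, the ratio ran from 2.04 to 2.32. The sums run over 49 large and 29 small subunit genes, so their ratio takes in this difference in number. Taken from the median gene of each subunit in place of the sums, the ratio ran from 0.948 to 1.38.

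**Figure D2:**
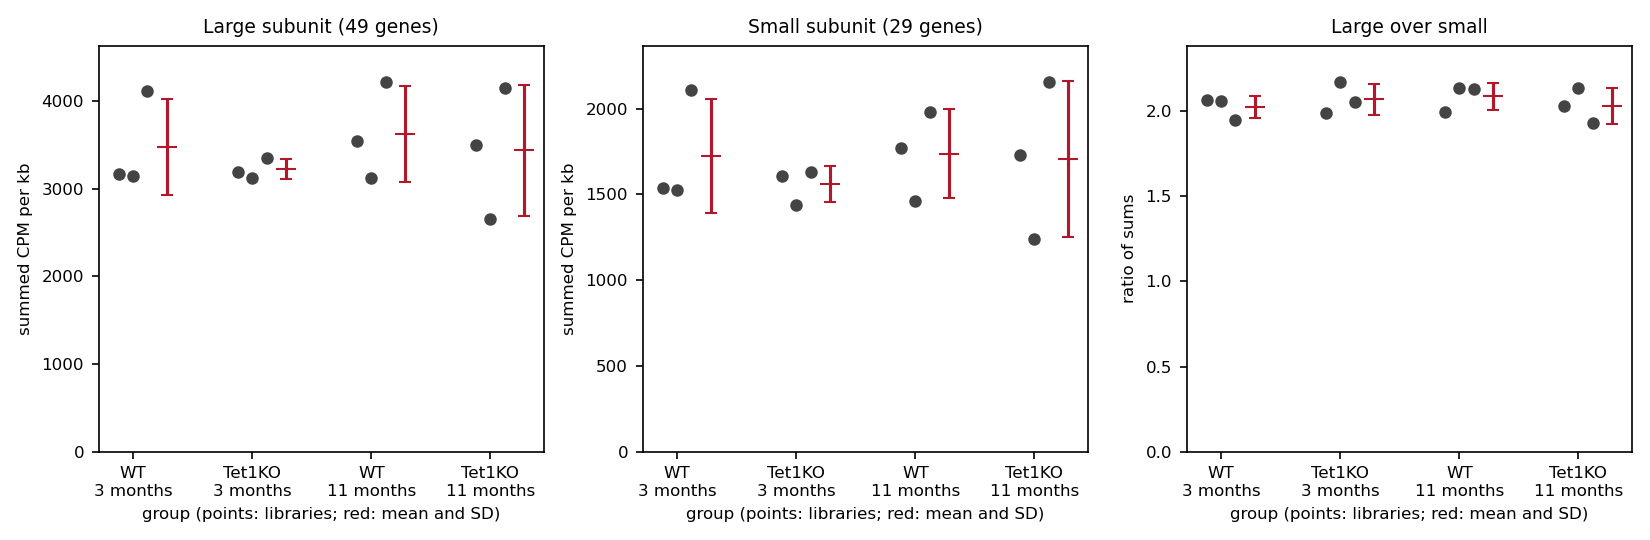
Summed CPM per kb of the 49 large subunit genes, of the 29 small subunit genes, and their ratio, by group. Points are single libraries in replicate order and red marks are mean and SD (n = 3); the sums overlap between the 4 groups and the ratio lies between 1.93 and 2.17 in every library.

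At 3 months, none of the 78 genes differed between Tet1KO and WT at an adjusted p of 0.05 in edgeR's quasi-likelihood test, and 0.0% of the 19815 genes tested did. DESeq2 and limma-voom also called 0 of the 78, here and in the other 4 comparisons. None had an unadjusted p under 0.05, against 1.14% of all genes tested. The median log2 fold change was −0.11 for the large and −0.04 for the small subunit, beside −0.02 for all genes. Above 0 lay 27 of the 78 genes (34.6%, against 46.8% of all genes). In 71 of 78 genes the 95% interval of the fold change lay within 2-fold either way, against 9212 of the 19815 genes tested. The median SE was 0.21 for the members and 0.38 for all genes. In sorted bulk samples fewer cells of a type and less RNA per cell cannot be told apart. The groups did not overlap for 2 genes higher in Tet1KO, Mrpl2 and Mrps6 (2.56% of members, against 3.32% of all genes), and for 4 lower, Mrpl14, Mrpl36, Mrpl48 and Mrpl52 (5.13%, against 3.62%). Mrpl36, a small basic protein of the large subunit, lay at 81.7, 80.0 and 90.3 CPM in WT and 70.5, 69.7 and 74.5 in Tet1KO. The genes with the smallest p were Mrpl45, which sits near the exit tunnel (log2 fold change 0.32 ± 0.18, SE, unadjusted p = 0.0962), Mrpl37 (0.33 ± 0.24, unadjusted p = 0.191) and Mrpl48 (−0.18 ± 0.13, unadjusted p = 0.202), each with an adjusted p of 1. Mrpl45 stood at 52.0, 57.5 and 38.8 CPM in WT and 68.4, 57.3 and 60.0 in Tet1KO, and the groups overlapped. The Sertoli cell markers had a median of −1.65 here, with 0 of 8 tested above 0 and 3 at an unadjusted p under 0.05, and their part was not tested. Without WT replicate 3 the medians turned to 0.05 and 0.08 for the large and small subunit. That of the small subunit also turned without Tet1KO replicate 1 (0.00048), with total counts in place of scaling factors (0.03) and in limma-voom (0.02).

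At 11 months, again none of the 78 genes passed an adjusted p of 0.05 (0.0% of all genes) and none an unadjusted p under 0.05 (1.65% of all genes). The medians were −0.11 and −0.08 for the large and small subunit beside 0.02 for all genes. Above 0 lay 17 of 78 genes (21.8%, against 53.8% of all genes). The interval lay within 2-fold for 76 of 78 genes, against 9516 of the 19815 genes tested. No gene was higher in Tet1KO without overlap (2.82% of all genes), and 2 were lower, Mrpl3 and Mrps2 (2.56%, against 2.54%). Mrpl3 (mm10 chr9:105053239-105079888, plus strand), a core protein next to the catalytic centre, stood at 96.0, 102 and 93.3 CPM in WT and 73.5, 76.7 and 87.9 in Tet1KO, a log2 fold change of −0.29 ± 0.14 (SE, unadjusted p = 0.0686). Mrps2, a bacterial-type small subunit gene, stood at 48.8, 62.3 and 46.7 CPM in WT and 42.1, 46.6 and 41.9 in Tet1KO (−0.27 ± 0.17, unadjusted p = 0.124). Mrpl19 had the third smallest p (−0.31 ± 0.21, unadjusted p = 0.156). The adjusted p of these 3 genes was 1 in edgeR. The medians rested on 2 libraries. Without Tet1KO replicate 2 they turned to 0.10 and 0.089, and without WT replicate 3 that of the large subunit turned to 0.01. The 6 peritubular myoid markers had a median of −2.01, 5 of them at an unadjusted p under 0.05, and the 7 leukocyte and macrophage markers a median of 0.74, 7 of 7 above 0 and 2 at that p. Their part was not tested.

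Between 3 and 11 months in WT, none of the 78 genes passed an adjusted p of 0.05 (0.0% of all genes), and 2 had an unadjusted p under 0.05, 2.56% of members against 5.67% of all genes tested. The medians were 0.08 and 0.13 for the large and small subunit beside −0.06 for all genes. Above 0 lay 50 of 78 genes (64.1%, against 43.6% of all genes). The 2 genes were Mrpl2, a core protein of the large subunit (mm10 chr17:46646229-46650139, plus strand; 0.38 ± 0.16, SE, unadjusted p = 0.0365), and Mrps26, a small subunit protein of the mitochondrial lineage (chr2:130563742-130568695, plus strand; 0.29 ± 0.13, unadjusted p = 0.0489). Both had an adjusted p of 0.774, as did Mrpl28 (0.28 ± 0.13, unadjusted p = 0.0507). Mrpl2 stood at 72.4, 82.9 and 79.8 CPM at 3 months and 83.0, 118 and 106 at 11 months. Mrps26 stood at 52.5, 53.8 and 60.2 CPM and then at 65.5, 72.0 and 65.5. In 6 genes every library of 11 months lay above every library of 3 months, Mrpl2, Mrpl3, Mrpl28, Mrpl44, Mrps7 and Mrps26 (7.69% of members, against 5.42% of all genes), and in none the reverse held (6.12% of all genes). In Tet1KO those 6 genes overlapped between the ages. The large subunit median turned to between −0.0099 and −0.005 without WT replicate 1 or 2 of 3 months or WT replicate 3 of 11 months. It also turned to −0.006 without both libraries that stood apart (WT replicate 1 and Tet1KO replicate 2 of 3 months), and was 0.27 without WT replicate 3 of 3 months, and the small subunit median turned to −0.006 without the genes that share exon bases. None of the 8 Sertoli cell, 8 spermatid or 6 spermatocyte markers tested lay above 0 here, with medians of −1.16, −0.48 and −0.64 and 1, 1 and 0 at an unadjusted p under 0.05, and their part was not tested.

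Between 3 and 11 months in Tet1KO, none of the 78 genes passed an adjusted p of 0.05 (0.0% of all genes) and none an unadjusted p under 0.05 (2.33% of all genes). The medians were 0.08 and 0.06 beside −0.01 for all genes. Above 0 lay 49 of 78 genes (62.8%, against 48.0% of all genes). The interval lay within 2-fold for 73 of 78 genes, against 9238 of the 19815 genes tested. No gene separated the ages in either direction, against 3.1% of all genes higher and 3.09% lower at 11 months. The smallest p values were those of Mrpl39 (−0.37 ± 0.20, SE, unadjusted p = 0.0899), Mrpl34, a bacterial-type protein (0.48 ± 0.28, unadjusted p = 0.115), and Mrpl52 (0.61 ± 0.37, unadjusted p = 0.131), each with an adjusted p of 0.9999 in edgeR. Mrpl52 stood at 99.4, 82.9 and 99.2 CPM at 3 months and at 110.1, 84.0 and 235 at 11 months. Its difference came with 1 high library, Tet1KO replicate 3 of 11 months, and the groups overlapped. Without that library the medians turned to −0.08 and −0.05, and that of the small subunit also turned without Tet1KO replicate 1 of 11 months (−0.02) and in limma-voom (−0.02). The peritubular myoid markers had a median of −2.75, 0 of 6 above 0 and 5 of 6 at an unadjusted p under 0.05, with Tpm2 at −4.70 and Acta2 at −3.35. The leukocyte and macrophage markers had a median of 0.67, 7 of 7 above 0 and 1 at that p. The part of these markers was not tested.

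The change with age did not differ detectably between the genotypes for any of the 78 genes. None passed an adjusted p of 0.05 for the difference (0.0% of all genes) and none an unadjusted p under 0.05 (1.57% of all genes). The medians were 0.03 and −0.03 beside 0.06 for all genes. The interval lay within 2-fold for 59 of 78 genes, against 6150 of the 19815 genes tested. The smallest p values were those of Mrpl3 (−0.43 ± 0.20, SE, unadjusted p = 0.0575), Mrpl37 (−0.61 ± 0.34, unadjusted p = 0.0929) and Mrpl45 (−0.46 ± 0.25, unadjusted p = 0.0964), each with an adjusted p of 1. The median of the large subunit turned negative without WT replicate 3 of 3 months (−0.19), WT replicate 1 (−0.01) or 2 (−0.05) of 11 months, or Tet1KO replicate 1 (−0.02) or 3 (−0.17) of 11 months. It also did so in limma-voom (−0.15), with total counts (−0.03), with the replicate block (−0.02) and with mitochondrially encoded and cytosolic ribosomal protein genes left out before scaling (−0.0037). That of the small subunit turned positive without Tet1KO replicate 2 of 11 months (0.12), without WT replicate 2 of 3 months (0.0063) and without the genes that share exon bases (0.01). The peritubular myoid markers had a median of −2.27 for this difference, 0 of 6 above 0 and 3 at an unadjusted p under 0.05. The leukocyte and macrophage markers had one of 1.25, 7 of 7 above 0 and 1 at that p. The part of these markers was not tested. The 5 comparisons share libraries and are not independent of each other.

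By structural class, the median log2 fold changes were also close to 0. For Tet1KO against WT at 3 months they were −0.15 for the 29 bacterial-type and −0.07 for the 22 mitochondria-specific large subunit proteins, and −0.05 and −0.04 for the 16 and 10 of the small subunit. At 11 months they were −0.11, −0.10, −0.08 and −0.08 in the same order. For 11 against 3 months in WT they were 0.04, 0.11, 0.13 and 0.07, and in Tet1KO 0.03, 0.08, 0.07 and 0.02. Members of each class lay on either side of 0 in each of these comparisons, and no difference between classes was tested.

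**Figure D3:**
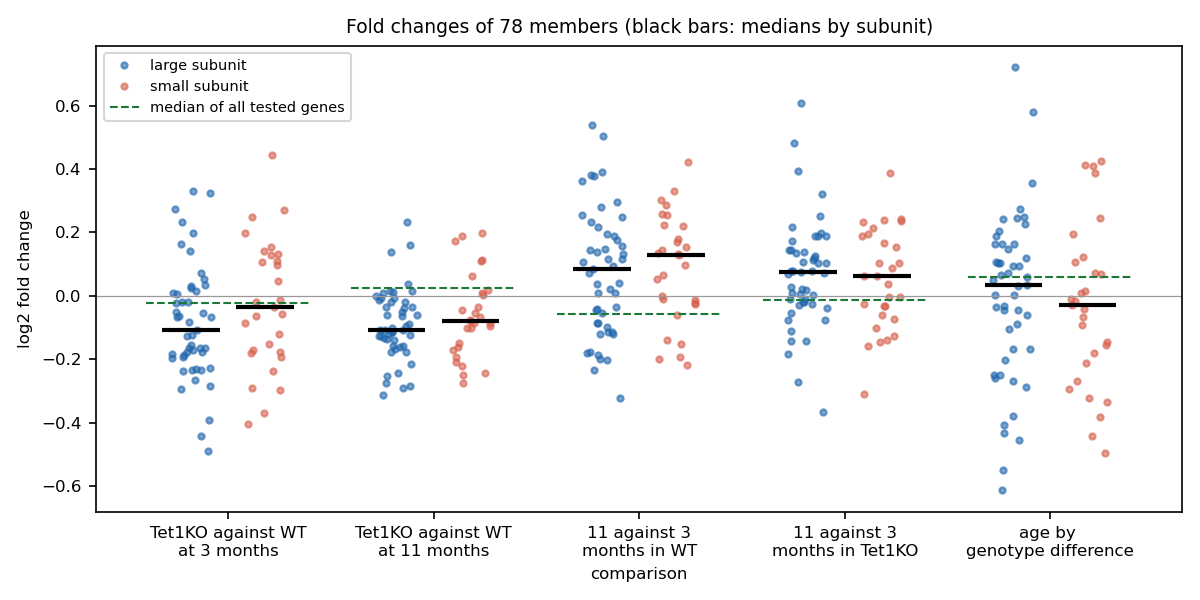
Log2 fold change of each of the 78 genes in the 5 comparisons, large subunit in blue and small subunit in red, with black bars at the subunit medians and a green dashed line at the median of all 19815 genes tested. The subunit medians lie between −0.11 and 0.13 and the points of both subunits lie on either side of 0 in every comparison.

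Libraries differed within groups in a way that many of the genes shared. A single component held 63.7% of the variance of the 78 genes over the 12 libraries, and the next 9.38%. The library scores on it had a Pearson r of 0.91 with the mean log2 CPM of the 83 cytosolic ribosomal protein genes (rho 0.83, r without the 2 most distant libraries 0.81), and the mean of the members had an r of 0.91 (rho 0.80) with the mean of the nuclear encoded respiratory chain genes. Within the 10 libraries with the code prefix AK the first r was 0.91, and the 2 libraries with prefix DY are too few for a value. As deviations from the group means it was 0.92, and without WT replicate 1 and Tet1KO replicate 2 of 3 months 0.91. The scores also had an r of −0.95 with the TMM factors and −0.63 with the number of genes counted, and −0.14 with log2 total counts. With total counts in place of TMM factors the component held 53.7% of the variance and its r with the cytosolic ribosomal protein genes was 0.78. These are descriptions over 12 libraries, which share scaling and amplification, and no cause was tested.

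The genes took part in this shared variation to differing degrees. In 25 of the 78 genes (17 large and 8 small subunit) the r with the cytosolic ribosomal protein mean was at least 0.8, and in 20 (9 and 11) it was below 0. With total counts these numbers were 8 and 28. Mrpl52 had the highest r (0.97, rho 0.90, 0.91 without 2), followed by Mrpl47 (0.97, rho 0.89, 0.92 without 2) and Mrps21 (0.96, rho 0.88, 0.91 without 2). Mrpl52 reached 182, 167 and 235 CPM in the third replicates of WT at 3 months, WT at 11 months and Tet1KO at 11 months, and stayed between 82.9 and 112 CPM in the other 9 libraries. Mrpl38 had the lowest r (−0.75, rho −0.66, −0.37 without 2) and stood at 39.4, 54.9 and 37.2 CPM in those 3 libraries and between 45.8 and 90.8 CPM in the others. Within its own subunit, Mrpl40 followed the mean of the other large subunit genes most closely (r 0.96) and Mrpl38 least (−0.59), and Mrps16 (0.94) and Mrps18b (−0.56) were the extremes of the small subunit.

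**Figure D4:**
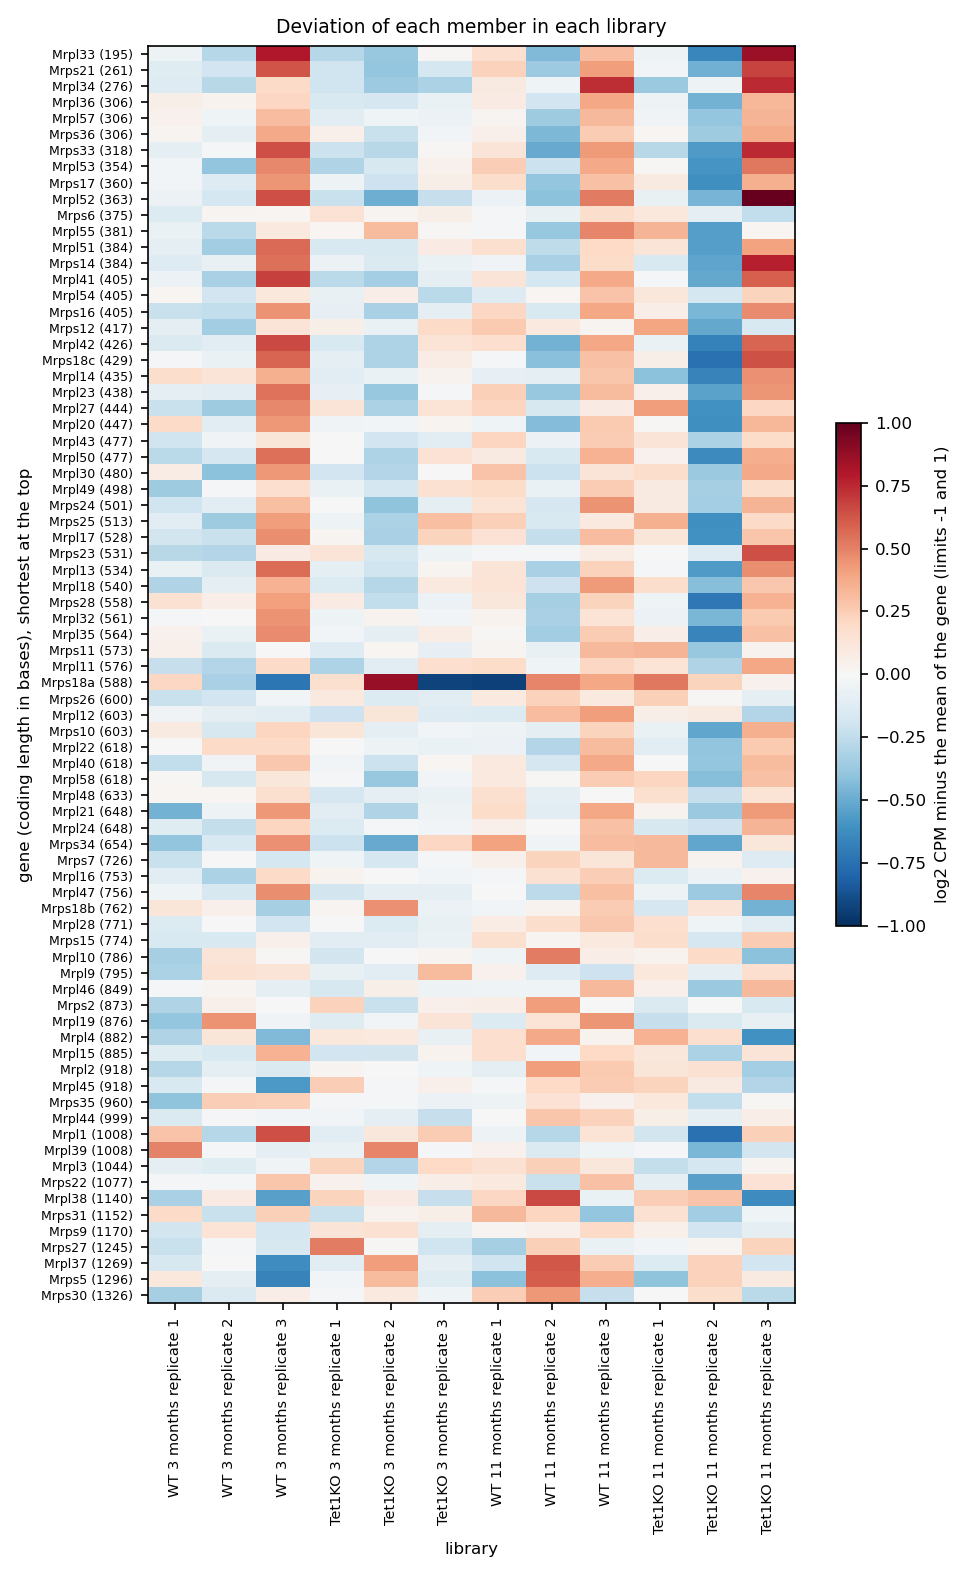
Log2 CPM of each of the 78 genes in each of the 12 libraries as the deviation from the gene's mean, red above and blue below, with genes ordered by coding length from 195 bases at the top to 1326 at the bottom. The third replicates of WT at 3 months, WT at 11 months and Tet1KO at 11 months are red and Tet1KO replicate 2 of 11 months is blue among the short genes, and the pattern is absent or turned round among many of the long ones.

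The degree followed the coding length. Over the 78 genes, the r with the cytosolic ribosomal protein mean and the coding length of the principal transcript had a Spearman correlation of −0.69. The 24 genes with a coding length under 450 bases had a median r of 0.88, the 16 from 450 to under 600 bases 0.74, the 23 from 600 to under 900 bases 0.54, and the 15 of 900 bases or more −0.08. The 14659 other protein-coding genes tested, without cytosolic ribosomal protein genes, had medians of 0.23, 0.01, −0.09 and −0.11 in these classes, and the 5114 of them with a mean log2 CPM of at least 5 had 0.71, 0.42, 0.19 and 0.08. Gene by gene, the Spearman correlation with coding length was −0.06 over these 14659 genes and −0.19 over the 5114. Exceptions among the 78 genes were Mrps6, short at 375 bases with an r of −0.18, and Mrps22, long at 1077 bases with an r of 0.73. Over the 78 genes, the Spearman correlation with total transcript length was weaker than that with coding length, at −0.33. That with coding length stayed between −0.70 and −0.68 when each library was left out and was −0.69 with total counts and −0.64 for deviations from group means. Genes are not independent replicates, and the coding length was chosen for description after the values were seen.

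**Figure D5:**
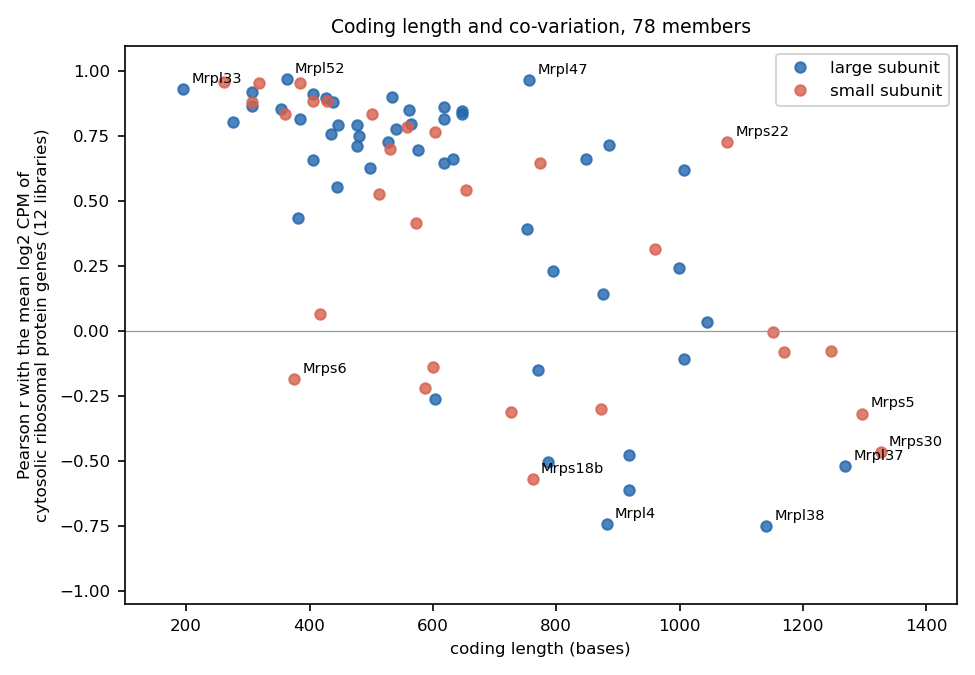
Pearson r of each gene with the mean log2 CPM of the cytosolic ribosomal protein genes over 12 libraries, against coding length in bases, large subunit in blue and small subunit in red. Genes under 450 bases have a median r of 0.88, genes of 900 bases or more a median of −0.08.

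The genes that make and serve the mitochondrial ribosome were examined by lists. None of their genes passed an adjusted p of 0.05 in any of the 5 comparisons, and the counts at an unadjusted p under 0.05 were 0 to 3 per list and comparison. Of the 83 respiratory chain genes tested, 9 had such a p for 11 against 3 months in WT, where 5.67% of all genes did, and 0 to 2 in the other comparisons. Of the 5 ribosomal proteins with other names, Dap3, a small subunit GTP-binding protein gene, had an unadjusted p of 0.034 for 11 against 3 months in WT (log2 fold change 0.31). It stood at 120.4 ± 5.79 CPM in WT and 129 ± 12.9 in Tet1KO at 3 months and 149 ± 15.5 and 136 ± 11.9 at 11 months. Aurkaip1 averaged 220.0 CPM and Ptcd3 71.7 CPM over the libraries. Of the 21 assembly and rRNA modification genes the highest were Malsu1, an assembly factor of the large subunit (156 CPM), Mterf3 (110.3 CPM) and Dhx30 (86.8 CPM). Their median log2 fold changes in the 2 comparisons of Tet1KO with WT were 0.06 at 3 months and −0.11 at 11 months.

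Among the 15 translation factors in the table, Guf1, an elongation factor gene, averaged 188 CPM, and Slirp and Lrpprc, whose products stabilise mitochondrial mRNAs, averaged 153 and 108 CPM. In WT, 3 of the 15 had an unadjusted p under 0.05 for 11 against 3 months, where 5.67% of all genes tested had one, Mtif3, the initiation factor that dissociates the subunits (log2 fold change 0.61), Mtfmt, which formylates the initiator tRNA (0.50), and Oxa1l, which inserts nascent chains into the inner membrane (0.50). The 20 aminoacyl-tRNA synthetase and amidotransferase genes were led by Mars2 (128 CPM), Rars2 (115 CPM) and Lars2 (111 CPM). In WT 17 of these 20 lay above 0 for 11 against 3 months, where 43.6% of all genes did, with a median of 0.21 beside −0.06 for all genes. An unadjusted p under 0.05 in edgeR was found for 3 of the 20, against 5.67% of all genes. Among these 3, Mars2 lay below 0 (−0.56, edgeR unadjusted p = 0.0363). In Tet1KO 12 of the 20 lay above 0 (48.0% of all genes), with a median of 0.06 beside −0.01 for all genes. Such a p was found for 2 of the 20 there, against 2.33% of all genes. The difference between the genotypes was not tested for the list. The 7 genes of mitochondrial DNA transcription had medians of −0.21 and −0.27 for Tet1KO against WT at 3 and 11 months beside −0.02 and 0.02 for all genes, and none had an unadjusted p under 0.05; Tfam, which packages and transcribes mitochondrial DNA, averaged 92.1 CPM. Among the regulators, Gabpa and Yy1 averaged 143 and 117 CPM.

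The RNA partners of these proteins were read from the same libraries. The mitochondrial rRNAs are counted here as they appear in a library of Smart-seq2 cDNA, and mt-Rnr2, of the large subunit, stood at 6336 ± 1001 CPM in WT and 4909 ± 1025 in Tet1KO at 3 months and 4035 ± 1503 and 5277 ± 1737 at 11 months. For mt-Rnr1, of the small subunit, the same groups averaged 1055 ± 173, 801 ± 118, 669 ± 250 and 863 ± 330 CPM. Neither passed the test. The r of the rRNA list with the mean of the 78 genes was 0.40 (rho 0.28) over the same 12 libraries. That of the synthetases was −0.34 (rho −0.32), and that of the 13 protein-coding genes of the mitochondrial genome 0.48 (rho 0.24). In WT all 13 of these protein-coding genes lay below 0 for 11 against 3 months, where 43.6% of all genes tested lay above 0. An unadjusted p under 0.05 in edgeR was found for 3 of them, against 5.67% of all genes. In Tet1KO 4 of the 13 lay above 0 (48.0% of all genes), and for the age by genotype difference all 13 did (55.6%). For Tet1KO against WT, 1 of the 13 lay above 0 at 3 months and 8 at 11 months. Their median for age in WT was −0.44, while the medians of the ribosomal proteins were 0.08 and 0.13. The difference between these lists was not tested.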

How the data were processed

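The authors deposited raw counts per gene. Per the file headers, featureCounts 1.6.2 assigned read pairs to GENCODE vM17 genes, keeping alignments with mapping quality of 30 or more, with multi-mapping allowed, strand ignored and a pair over several genes counted for each. HISAT2, SAMtools and mm10 are named by the submitters' processing notes, without versions. Symbols were found for 53620 of 53715 identifiers in GENCODE vM21, which also gave coding lengths.

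Counts were fitted in edgeR 4.0.16 (R 4.3.3): filterByExpr, which kept 19815 genes and all 78 members; TMM; 1 mean per group; robust quasi-likelihood F tests, two-sided; Benjamini-Hochberg adjustment over all genes tested, at 0.05. Log2 CPM used a prior count of 2. The procedure was tested on simulated counts for Tet1KO against WT at 3 months only, with changes of 2-fold or more. Smaller changes were not simulated, so that test does not bear on them. Replicates differed beyond sampling noise (chi-square divided by its degrees of freedom 10.9 or more). Floors cover counting error only, as reads carry no molecular identifiers. Same-numbered WT and Tet1KO libraries of 11 months deviated together (correlations 0.37, 0.17 and 0.33). Same-numbered libraries of 3 and 11 months also correlated above 0, at 0.17, 0.06 and 0.13 in WT and 0.08, 0.47 and 0.10 in Tet1KO. Those of WT and Tet1KO at 3 months had −0.59, −0.18 and 0.30. The main fit used no pairing by replicate number, so the p values, SEs and intervals given for every comparison are unpaired. A block for the replicate number was fitted only as an alternative, and it changed no call.

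Members, lists and rules were chosen with earlier results of these data known. Named genes had the 3 smallest p values of a comparison, the 5 highest or 5 lowest levels, a listed role, up to the 3 highest levels of a list, or the extremes of co-variation within a subunit. Genes whose groups do not overlap, those with printed promoters, Mrps6, Mrps22, Mrpl52, neighbouring genes, Tpm2, Acta2, Dap3, Mtif3, Mtfmt and Oxa1l were named after their values were seen.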

Additional observations from a re-analysis of the deposited data

How the results depend on the processing

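No member was called at an adjusted p of 0.05 under any alternative, which covered RLE, upper-quartile and no scaling factors, DESeq2 1.42.0 and limma-voom 3.58.1, no and stricter filters, scaling without mitochondrially encoded and cytosolic ribosomal protein genes, the replicate block, the code prefix as a covariate, fits of only the groups compared, a 0.01 threshold, and libraries left out singly or as the 2 that stood apart. In DESeq2 2, 3 and 7 genes outside the members were called for Tet1KO against WT at 3 and 11 months and for age in Tet1KO, against 0 in edgeR. With the replicate block, members called stayed at 0 in each comparison, and 1, 0, 6, 1 and 3 members had an unadjusted p under 0.05, against 0, 0, 2, 0 and 0. Under the block 1.85, 2.09, 6.83, 2.83 and 2.31% of all genes had such a p, and the 6 members were 7.69%. The 15 named fold changes kept their sign in all 357 refits. They were picked as the 3 smallest p values of each comparison in these same data, and the refits share most of the counts. A kept sign was therefore likely in advance. Subunit medians moved by more than the spread between replicates in 5 of 248 refits, all with 1 library left out. That spread was 0.185 for the large and 0.152 for the small subunit in log2 CPM, larger than any median of the main fit. A median could therefore change sign without counting as moved, so this count does not show that the medians are stable. Over each library left out, the large subunit median ran from −0.19 to 0.05 and the small from −0.08 to 0.08 for Tet1KO against WT at 3 months, from −0.23 to 0.10 and −0.16 to 0.089 at 11 months, from −0.0099 to 0.27 and 0.05 to 0.17 for age in WT, from −0.08 to 0.24 and −0.05 to 0.20 for age in Tet1KO, and from −0.19 to 0.18 and −0.15 to 0.12 for the difference. From medians over genes the ratio of the subunits was 1.28, 1.12, 1.19 and 1.15 in WT and Tet1KO at 3 and then 11 months. The ratio of sums takes in the number of genes, 49 against 29, and that of medians does not. The alternatives on co-variation were chosen after seeing the data. Precision was limited by 3 libraries per group and the spread between them; the lowest count of a member was 79.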

Other observations

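Pseudogenes with ribosomal protein names were counted next to the members. Mrpl48-ps had 102 to 334 counts and Mrpl23-ps1 68 to 192 counts per library, while Mrps36-ps1 had 6 to 25, Mrps36-ps2 1 to 11 and Mrps36-ps3 0 in every library. How reads were split between Mrpl48, Mrpl23 and Mrps36 and these copies was not tested.

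Of the 5611 genes tested with a mean log2 CPM of at least 5, the most alike to the mean of the 78 genes over the 12 libraries were Pbdc1 (r 0.97), Gm48045 (0.97) and the member Mrps16 (0.97), and members made up 10 of the first 100. The mean includes each member, so this is a description only.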
